A study of Mus musculus with 12 samples.

Results

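The genes of mitosis and chromosome segregation described here were 55 of the 49315 genes in an RNASeq count table of mouse splenic T cells. They were chosen by symbol as a set of known mitotic genes, and each symbol was matched to its Ensembl identifier in the GRCm38 annotation, which found all 55. Wild-type (WT) mice and mice with a whole-body deletion of the microRNA miR-214 (miR-214-/-) were given sham infusion or angiotensin II (Ang II, 490 ng/kg per day), the pressor peptide used to produce hypertension, for 14 days from implanted minipumps. The mice were 12-week-old males. Each of the 4 groups held 3 mice, and every mouse gave 1 library. T cells were taken from the spleen by magnetic negative selection, which removes other cells and leaves T cells unlabelled, so that cells missed by the antibodies remain in the sample. The deletion was present in every cell of the miR-214-/- mice, not in T cells alone.

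Cells entering mitosis switch on a shared set of genes late in the cell cycle. Cyclins A and B with their kinase Cdk1 drive entry, the kinetochores attach chromosomes to the spindle, and the spindle checkpoint holds separation back until all are attached. The anaphase-promoting complex then tags cyclins and securin for destruction, separase frees the sister chromatids, and the cytokinetic machinery divides the cell. Most circulating and splenic T cells are at rest, and a dividing T cell, B cell, plasmablast or blood cell precursor uses the same genes, so their RNA marks division and not a cell type.

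Many of these genes carry a cell cycle homology region (CHR), bound by the DREAM and MuvB complexes, together with CCAAT boxes, bound by NF-Y, close to the start of the gene. Promoters are shown for 6 genes to let the reader see the elements in genes that rose after Ang II in WT (Ccnb2, Cdc20, Ube2c, Kif11) and in genes that did not pass the test (Racgap1, Cdc25b). Each line runs 5′ to 3′ from 120 bases before to 30 bases after the RefSeq start (GRCm38.p6), and capitals mark the CHR letters TTTGAA or TTCGAA and the CCAAT box on either strand (TTCAAA and ATTGG where the reverse strand holds them).
Ccnb2, chr9:70421525-70421674, minus strand: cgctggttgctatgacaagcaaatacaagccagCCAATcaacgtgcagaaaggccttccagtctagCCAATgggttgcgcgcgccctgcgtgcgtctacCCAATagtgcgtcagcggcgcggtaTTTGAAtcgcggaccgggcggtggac
Cdc20, chr4:118437314-118437463, minus strand: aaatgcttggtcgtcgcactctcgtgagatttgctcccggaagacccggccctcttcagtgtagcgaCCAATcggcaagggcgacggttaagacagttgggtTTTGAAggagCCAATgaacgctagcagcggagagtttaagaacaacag
Ube2c, chr2:164769809-164769958, plus strand: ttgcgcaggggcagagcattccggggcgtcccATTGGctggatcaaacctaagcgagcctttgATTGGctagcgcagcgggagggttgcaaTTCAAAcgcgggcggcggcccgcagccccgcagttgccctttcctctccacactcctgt
Kif11, chr19:37376262-37376411, plus strand: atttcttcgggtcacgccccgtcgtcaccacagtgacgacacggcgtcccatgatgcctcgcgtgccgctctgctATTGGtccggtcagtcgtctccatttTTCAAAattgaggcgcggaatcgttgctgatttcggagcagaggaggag
Racgap1, chr15:99651627-99651776, minus strand: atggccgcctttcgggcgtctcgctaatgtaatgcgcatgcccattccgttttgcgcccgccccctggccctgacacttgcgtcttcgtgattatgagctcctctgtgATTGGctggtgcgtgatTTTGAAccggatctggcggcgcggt
Cdc25b, chr2:131186828-131186977, plus strand: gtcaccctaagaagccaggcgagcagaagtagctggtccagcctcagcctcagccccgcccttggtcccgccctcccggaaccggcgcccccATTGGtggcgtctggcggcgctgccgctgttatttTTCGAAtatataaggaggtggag
The CHR letters lie within 30 bases of the start in all 6 promoters. In Ccnb2, which encodes cyclin B2, they follow 3 CCAAT boxes.

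A promoter window from 250 bases before to 50 bases after the start was given for 46 of the 55 genes, with no window matched for Aurkb, Ccna2, Cdc25c, Foxm1, Incenp, Kif20a, Smc4, Spc24 and Tpx2. The CHR letters were found on either strand in 34 of these 46 genes (73.9%), beside 16.9% of 10858 genes tested in WT and 21.7% of all 27025 genes with a window. In the 150 bases from 100 before to 50 after the start the shares were 69.6%, 6.93% and 9.87%. A CCAAT box was held by 71.7% of the mitosis genes and 41.1% of all genes, and 2 or more CCAAT boxes by 45.7% and 13.3%. Both elements together were held by 63.0% of the mitosis genes and 8.61% of all genes. The longer E2F forms TTTCGCGC or TTTGGCGC, which mark many genes of DNA replication, were found in 6.52% of the mitosis genes and 0.929% of all genes. These are matches of letters and not measured binding.

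**Figure D1:**
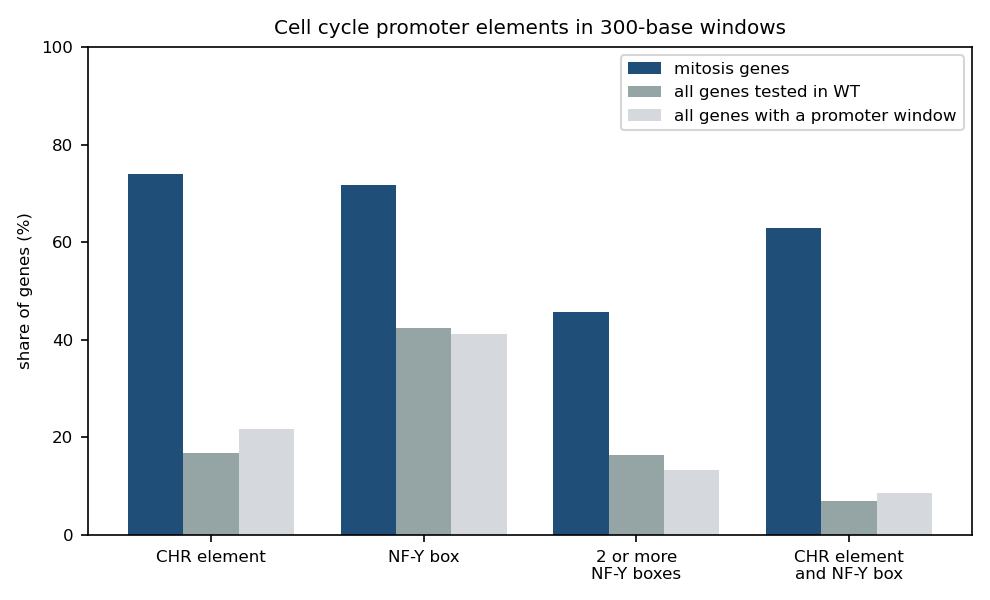
Bars give the share of genes (%, axis from 0 to 100) whose 300-base promoter window holds a CHR element, an NF-Y (CCAAT) box, 2 or more boxes, or both elements, for the 46 mitosis genes with a window, all genes tested in WT and all genes with a window. The mitosis genes stand highest for each element, at 73.9% for the CHR element beside 16.9% and 21.7%.

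Total counts per library were between 21126874 and 29605988. Levels are given in CPM, the number of counts of a gene scaled to a common library size, with the totals first adjusted by TMM. All 55 genes passed the filter on low counts in every comparison. The deleted gene, Mir214, was at 0 counts in each of the 12 libraries, WT included, and a true level of up to 3 counts is compatible with 0. Mature miRs lack a poly(A) tail and are lost in this kind of library, so these counts hold no check of the genotype.

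In WT T cells most of the mitotic machinery was higher after Ang II. Of the 55 genes, 49 rose and 0 fell, at an adjusted p under 0.05 and a log2 fold change over 1 in the quasi-likelihood test of edgeR, with p adjusted over all genes by the Benjamini-Hochberg method. Of all 16012 genes tested, 7.01% were called higher. An unadjusted p under 0.05 was reached by 54 of the 55, beside 35.6% of all genes. The median log2 fold change of the 55 genes was 2.09, beside -0.02 over all genes tested, and the values ran from -0.31 to 2.96. For 51 of the 55 genes every Ang II library lay above every sham library, beside 19.7% of all genes. In miR-214-/- T cells 0 of the 55 genes were called, where 0.0% of 15937 genes were called by edgeR, and the median log2 fold change was 0.48.

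Summed over the 55 genes, the WT sham libraries held 1653, 1806 and 1770 CPM and the WT Ang II libraries 3745, 4417 and 4399 CPM. The miR-214-/- sham libraries held 1987, 2481 and 2524 CPM, and the miR-214-/- Ang II libraries 3585, 2258 and 2320 CPM. In these sums the 3 WT Ang II libraries stood above the other 9. Within miR-214-/- Ang II, replicate 1 lay close to the WT Ang II libraries, and replicates 2 and 3 lay among the miR-214-/- sham libraries. As mean log2 CPM over the genes, the groups were at 3.77 ± 0.19 (SD, n = 3) in WT sham, 4.44 ± 0.33 in miR-214-/- sham, 4.79 ± 0.56 in miR-214-/- Ang II and 5.62 ± 0.20 in WT Ang II. By this measure miR-214-/- Ang II replicate 1, at 5.43, lay just above WT Ang II replicate 1, at 5.38. The group means of 50 of the 55 genes stood in that order. The neighbours miR-214-/- sham and miR-214-/- Ang II differed by less than the SD of miR-214-/- Ang II, and their libraries overlapped. In bulk RNA fewer cells of a type and less RNA per cell cannot be told apart.

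**Figure D2:**
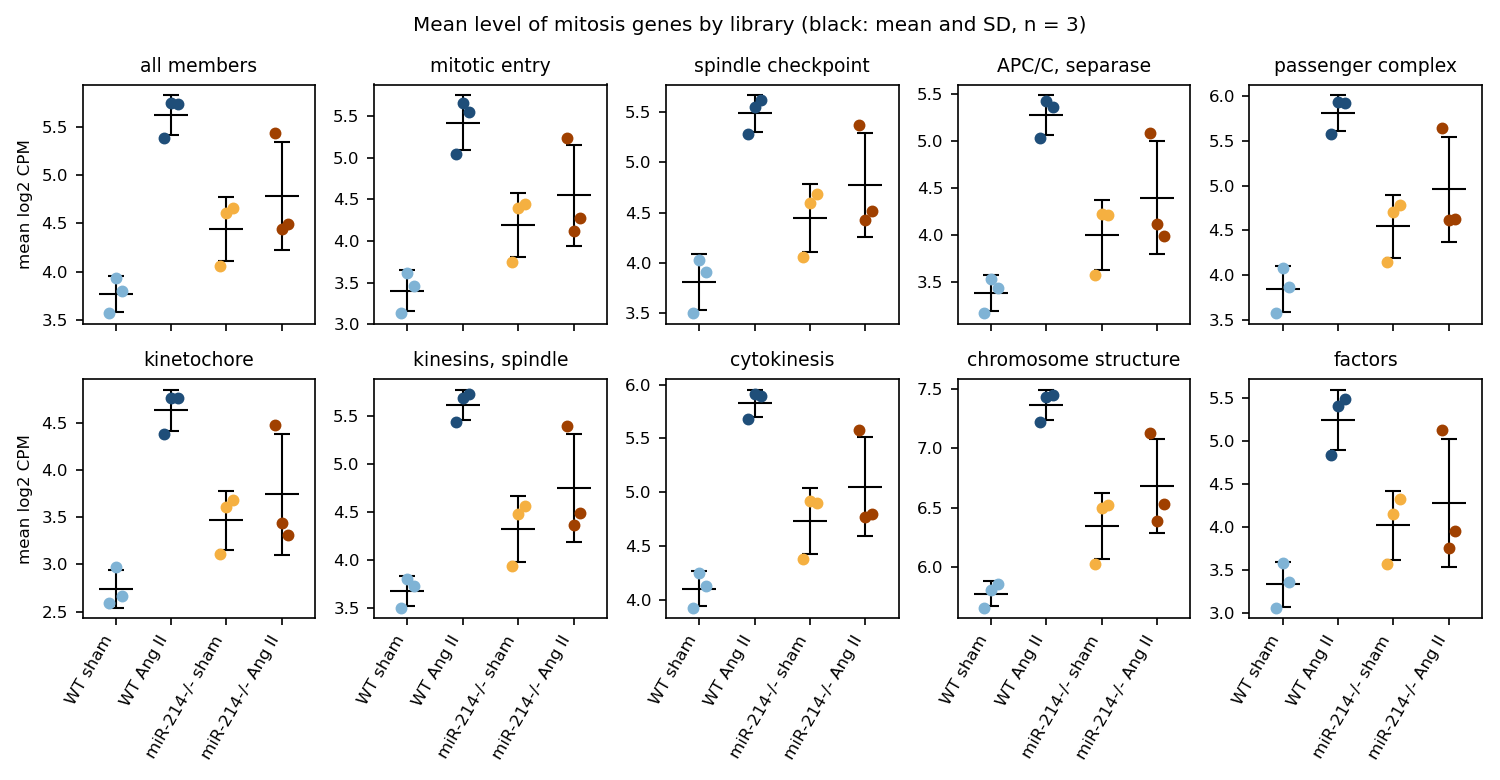
Points give the mean log2 CPM of each library over all 55 genes and over the 9 groups of genes by role, with a black bar for the mean and SD of the 3 mice of a group. In every panel the WT Ang II libraries lie above the WT sham libraries, and miR-214-/- Ang II replicate 1 lies apart from replicates 2 and 3.

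The drivers of mitotic entry were raised in WT, with 7 of 8 called and a median log2 fold change of 2.37. Ccna2 (cyclin A2, chr3:36564865-36572150) had 14.2, 21.6 and 22.2 CPM in WT sham and 80.8, 135 and 132 CPM in WT Ang II. All 3 Ang II libraries lay far above all 3 sham libraries, and the log2 fold change was 2.59 ± 0.24 (SE, adjusted p = 0.00201). In miR-214-/- the values were 23.5, 48.3 and 47.7 CPM in sham and 96.2, 41.2 and 42.1 CPM in Ang II. These groups overlapped, since replicates 2 and 3 of Ang II lay below replicates 2 and 3 of sham, and the change was 0.59 ± 0.41 (adjusted p = 0.572).

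Cdc25c, a phosphatase that activates Cdk1, had the largest fold change of the 55 genes in WT, at 2.96 ± 0.37 (adjusted p = 0.00461). Its levels were low, at 0.734, 1.31 and 0.677 CPM in WT sham and 4.44, 8.83 and 7.95 CPM in WT Ang II. Cdc25b, its relative that acts earlier at the G2/M boundary, was not called. It had 109, 111 and 127 CPM in WT sham and 97.9, 108 and 71.9 CPM in WT Ang II, a change of -0.31 ± 0.14 (adjusted p = 0.177). Every Ang II library lay below every sham library for Cdc25b, although the difference did not pass the test. Ccnb1 and Ccnb2 (cyclins B1 and B2), Cdk1 and the kinases Plk1 and Aurka rose with log2 fold changes between 1.85 and 2.53.

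Among the 5 genes of the spindle checkpoint, 4 rose, with a median of 2.22 over the group. Bub1b, which encodes the checkpoint protein BubR1, had 11.7, 17.4 and 14.9 CPM in WT sham and 59.1, 71.8 and 76.8 CPM in WT Ang II. The groups were far apart, with a log2 fold change of 2.25 ± 0.17 (adjusted p = 0.00102). Bub1, a checkpoint kinase at the kinetochore, rose by 2.30 ± 0.24 on the same scale. Bub3, the adaptor that brings Bub1 and BubR1 to the kinetochore, was not called. It had 80.6, 81.1 and 98.1 CPM in WT sham and 96.3, 108 and 106 CPM in WT Ang II. The lowest Ang II library lay just under the highest sham library, and the change was 0.27 ± 0.09 (adjusted p = 0.0825).

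The 4 genes of the exit from metaphase all rose, with a median of 2.09. Cdc20, the activator that directs the anaphase-promoting complex to its first targets, had 12.3, 13.8 and 14.7 CPM in WT sham and 41.4, 60.1 and 61.1 CPM in WT Ang II. Ube2c, the ubiquitin-conjugating enzyme of that complex, went from 6.95, 12.2 and 9.66 CPM to 45.1, 60.2 and 53.2 CPM. Both genes were separated completely between the groups, with log2 fold changes of 2.00 ± 0.16 and 2.47 ± 0.21. Pttg1 (securin, the inhibitor of separase) changed least of the 4, by 1.03 ± 0.12 (adjusted p = 0.00359), and its fold change was 0.96, under the limit of the call, without WT Ang II replicate 2. Espl1 (separase) rose by 2.18 ± 0.20.

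All 4 subunits of the chromosomal passenger complex, which corrects attachment errors at the centromere, rose, with a median of 2.13. Birc5 (survivin) had 7.04, 10.5 and 8.57 CPM in WT sham and 35.9, 55.4 and 50.7 CPM in WT Ang II, a log2 fold change of 2.45 ± 0.21 (adjusted p = 0.00135). Cdca8 (borealin) rose by 2.01 ± 0.21 and Aurkb, the kinase of the complex, by 2.24 ± 0.15. Incenp, the scaffold, was at 10.4 RPKM (CPM per kilobase of exon) in WT sham, where Birc5 was at 2.56 RPKM. It had 41.3, 47.5 and 46.8 CPM in WT sham and 94.0, 107 and 108 CPM in WT Ang II, which gave 1.20 ± 0.08 (adjusted p = 0.000949).

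At the centromere and kinetochore 9 of 10 genes rose, with a median of 2.06. Cenpe, a motor that brings chromosomes to the spindle equator, had 14.2, 13.6 and 15.3 CPM in WT sham and 57.3, 58.7 and 61.8 CPM in WT Ang II. Its replicates were close together, and its log2 fold change was 2.05 ± 0.09 (adjusted p = 0.000295). Cenph, of the inner kinetochore, rose by 2.58 ± 0.39 from 1.94, 4.25 and 3.02 CPM. Ndc80, the microtubule-binding subunit, lay just over the limit of the call at 1.0 ± 0.10. It was at 0.97 without WT sham replicate 3 and 0.99 without WT Ang II replicate 3, both under the limit. Cenpa, the histone H3 variant of centromeres, was not called, with 51.9, 62.2 and 40.4 CPM in WT sham and 59.7, 101 and 90.3 CPM in WT Ang II. The groups overlapped for Cenpa, and the change was 0.70 ± 0.22 (adjusted p = 0.0646).

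Of the 9 kinesins and spindle proteins 8 rose, with a median of 2.20. Kif11 (Eg5, which pushes the spindle poles apart) had 17.2, 19.7 and 21.4 CPM in WT sham and 86.2, 95.5 and 99.0 CPM in WT Ang II. This was a log2 fold change of 2.28 ± 0.10 (adjusted p = 0.000295), with no overlap. Tpx2, which activates Aurora A on the spindle, rose by 2.23 ± 0.18. Kif20b, a kinesin of late cytokinesis, had 28.6, 22.8 and 27.8 CPM in WT sham and 47.8, 42.9 and 44.4 CPM in WT Ang II. Its groups did not overlap and its adjusted p was 0.00741, but its log2 fold change of 0.78 ± 0.11 was under the limit of the call.

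In the central spindle and cytokinesis 5 of 6 genes rose, with a median of 1.84. Anln (anillin, which organises the contractile ring) had 5.87, 9.06 and 7.22 CPM in WT sham and 38.8, 50.8 and 51.3 CPM in WT Ang II, a log2 fold change of 2.68 ± 0.19 (adjusted p = 0.000953). Cit (citron kinase, which acts at the midbody) rose by 2.47 ± 0.25, and Prc1, which bundles the midzone microtubules, by 1.89 ± 0.13. Racgap1, which forms centralspindlin with Kif23, was not called. Its values were 74.9, 87.6 and 101 CPM in WT sham and 124, 105 and 108 CPM in WT Ang II. These groups did not overlap, and the change was 0.37 ± 0.12 (adjusted p = 0.0762).

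In the group of chromosome structure 6 of 7 genes rose, with a median of 2.07. Mki67 (Ki-67, the coat protein of mitotic chromosomes, chr7:135689784-135716361) had the highest level per length of all genes that rose, at 12.6 RPKM in WT sham. It had 115, 124 and 142 CPM in WT sham and 608, 608 and 644 CPM in WT Ang II. The log2 fold change was 2.30 ± 0.09 (adjusted p = 0.000295). Top2a, the topoisomerase that untangles sister chromatids, rose by 2.07 ± 0.10, and the condensin subunits Ncapg and Ncaph rose by 2.24 ± 0.16 and 2.10 ± 0.15. Smc4, the core ATPase subunit shared by both condensins (chr3:69004738-69034623), had the highest level of all 55 genes in WT sham per length of transcript and was not called. It had 585, 555 and 519 CPM in WT sham and 441, 502 and 462 CPM in WT Ang II, all 3 below every sham library, a change of -0.23 ± 0.08 (adjusted p = 0.0863). Its partner Smc2 rose by 1.28 ± 0.10.

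Both transcription factors of the late cell cycle genes rose in WT. Foxm1 had 9.45, 14.5 and 12.3 CPM in sham and 34.9, 37.7 and 38.6 CPM in Ang II, a log2 fold change of 1.63 ± 0.16 (adjusted p = 0.00229). Mybl2 (B-Myb) went from 7.21, 9.81 and 8.39 CPM to 23.2, 47.9 and 52.4 CPM, by 2.29 ± 0.31 (adjusted p = 0.00569). Neither gene overlapped between the groups.

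**Figure D3:**
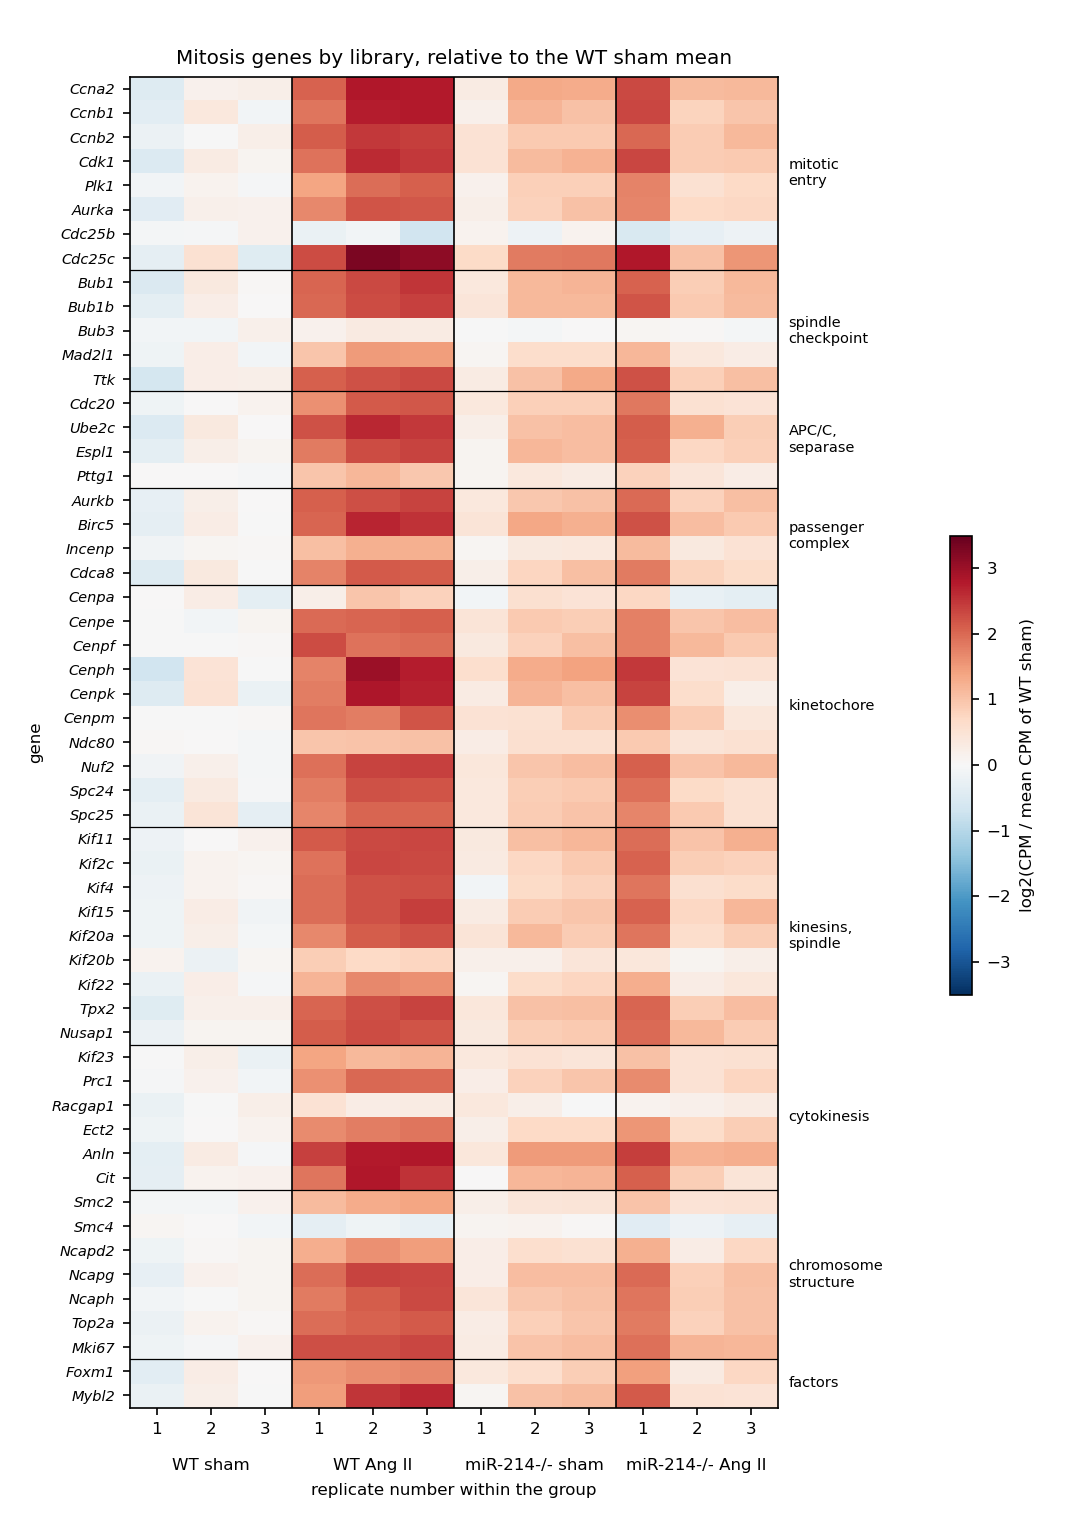
Colours give the log2 ratio of each library's CPM to the mean CPM of WT sham for the 55 genes (lines, grouped by role) in the 12 libraries (columns, numbered by replicate within the group). WT Ang II is red in 49 called genes, Cdc25b and Smc4 are pale blue there, and within miR-214-/- Ang II replicate 1 is redder than replicates 2 and 3.

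The 6 genes not called in WT were Cdc25b, Smc4, Bub3, Racgap1, Cenpa and Kif20b. In WT sham all 6 exceeded 3 RPKM, with a median of 12.4 RPKM and a range from 3.80 to 106 RPKM. Among the 49 genes that rose the median was 2.22 RPKM, the range ran from 0.184 to 12.6 RPKM, and 15 exceeded 3 RPKM. The CHR letters were found in all 5 of the uncalled genes with a promoter window, as in Racgap1 and Cdc25b above, and in 29 of the 41 called genes with one.

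Other genes of mitosis, listed by hand outside the 55, were 80 in number. Of these, 46 rose in WT and 0 fell, beside 7.01% of all genes called higher. Their median log2 fold change was 1.41. Aspm, a spindle pole protein, rose by 2.47 ± 0.17 and Knl1, the kinetochore scaffold of the checkpoint, by 2.15 ± 0.11. The highest CPM of the list were those of cohesin subunits, which hold sister chromatids together and also fold interphase chromosomes, and these subunits were not called. Stag2 changed by -0.05 ± 0.09, Rad21 by 0.25 ± 0.06 and Smc1a by 0.16 ± 0.07. The core subunits of the anaphase-promoting complex Cdc27, Cdc16, Cdc23, Anapc1 and Anapc2 were not called either, with values between 0.04 and 0.21. In miR-214-/- 0 of the 80 genes were called, with a median of 0.33.

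In miR-214-/- T cells the log2 fold changes of the 55 genes after Ang II ran from -0.37 to 0.70, with adjusted p of at least 0.276 in edgeR. The medians of the 9 groups by role lay between 0.38 and 0.57. An unadjusted p under 0.05 was reached by 2 genes, beside 12.2% of all genes, and both were lower after Ang II (Cdc25b by -0.35 ± 0.12, adjusted p = 0.335, and Smc4 by -0.37 ± 0.10, adjusted p = 0.276 in edgeR). For these 2 genes every Ang II library lay below every sham library. DESeq2's Wald test, the tool of the study, called 0 of the 55 genes, beside 0.18% of all genes. Its adjusted p for Smc4 was 0.0225, and Smc4 fell short of the limit on the fold. In DESeq2 15 of the 55 genes reached an unadjusted p under 0.05, beside 1843 of 28376 genes tested. Every Ang II library lay above every sham library for 3 of the 55 genes (Mki67, Cenpe and Smc2), beside 9.11% of all genes. Mki67 had 155, 256 and 271 CPM in miR-214-/- sham and 483, 289 and 284 CPM in miR-214-/- Ang II, a change of 0.64 ± 0.28 (adjusted p = 0.42). Replicates 2 and 3 of Ang II lay just above the sham libraries, and replicate 1 lay well above them.

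The miR-214-/- Ang II group was split in the same way across the set. Replicate 1 held the highest of the 3 values for 52 of the 55 genes, with a median ratio of 2.03 to the mean of replicates 2 and 3. It reached at least the lowest WT Ang II library for 32 genes, whereas replicates 2 and 3 both lay below every WT Ang II library for 52 genes. With replicate 1 left out, the median log2 fold change in miR-214-/- was 0.03, with 31 of 55 genes above 0. It was 0.27 without miR-214-/- sham replicate 1, the lowest of its group, and 0.60 to 0.68 without each of the other 4 libraries. The count of genes with an unadjusted p under 0.05 was 15 without Ang II replicate 2, beside 9.22% of all genes, and 7 without Ang II replicate 3, beside 12.9%, which is close to the share among the 55.

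**Figure D4:**
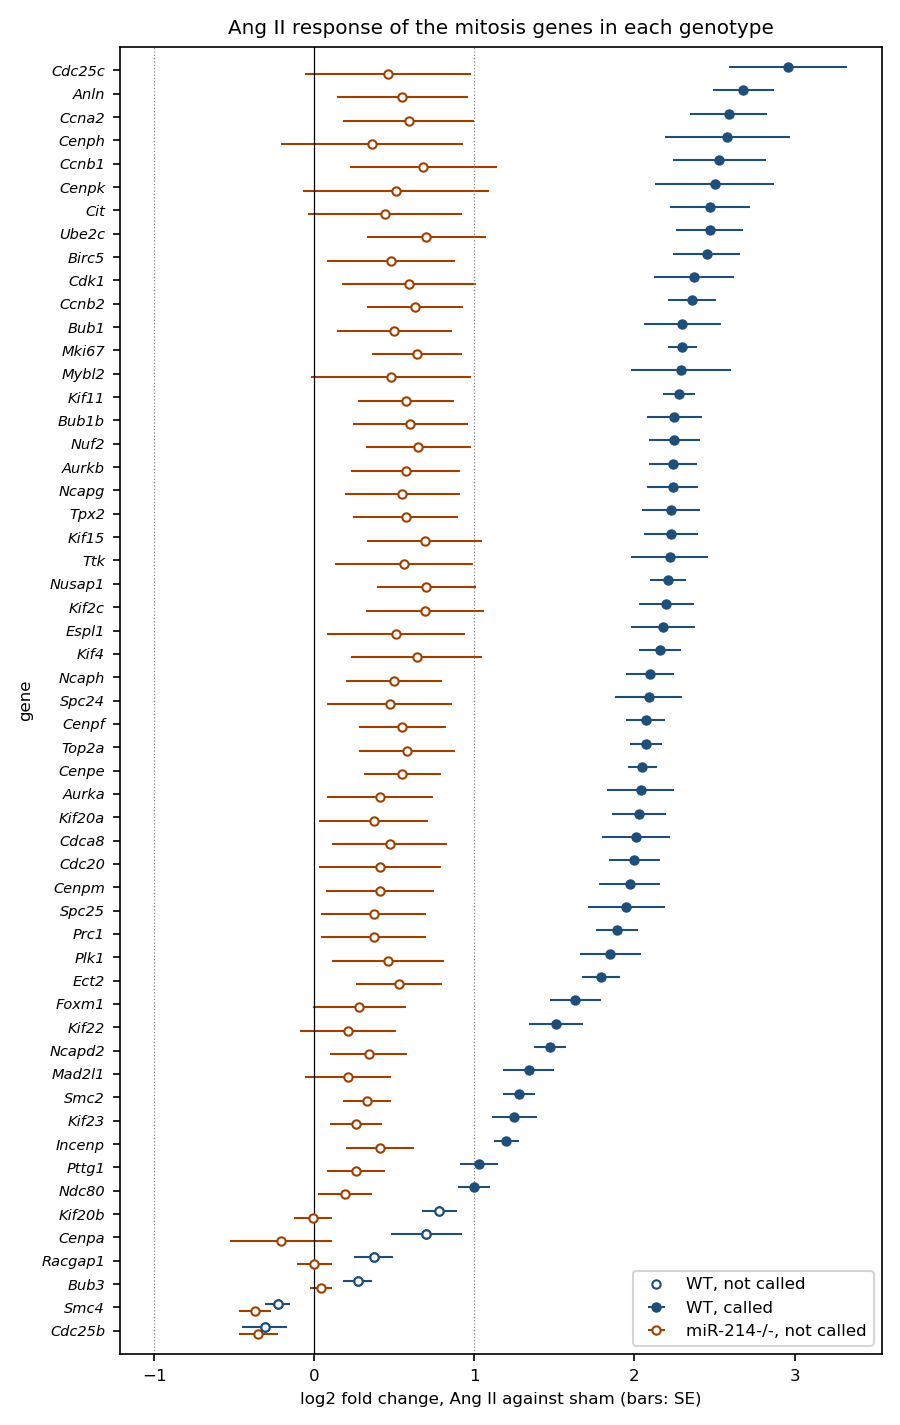
Points give the log2 fold change of Ang II against sham for each of the 55 genes in WT (blue) and miR-214-/- (brown) with SE bars, ordered by the WT value. Filled points passed the test, dotted lines mark a log2 fold change of 1 in either direction, and the miR-214-/- values lie between -0.37 and 0.70.

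Between the sham groups the mitosis genes stood higher in miR-214-/- than in WT, but 0 of 55 were called, where 0.0189% of 15913 genes were called. The median log2 difference was 0.73, with medians between 0.61 and 0.93 in the groups by role, and 54 of 55 genes were above 0. An unadjusted p under 0.05 was reached by 47 genes, beside 6.67% of all genes, and for 39 genes every miR-214-/- library lay above every WT library, beside 5.68%. The smallest adjusted p in edgeR was 0.701. DESeq2 called 2 genes, Anln (1.20, adjusted p = 0.00437) and Birc5 (1.06, adjusted p = 0.00383), beside 0.16% of all genes. By the adjusted p of DESeq2 alone, 20 of the 55 genes were under 0.05, the smallest being that of Mki67 (0.00139). All but these 2 called genes fell short of the limit on the fold. The share of all genes at the adjusted p alone was not counted. In edgeR 2 genes, Kif11 and Mki67, were called without miR-214-/- sham replicate 1, beside 0.184% of all genes. The count with an unadjusted p under 0.05 was 30 without miR-214-/- sham replicate 3, beside 3.18% of all genes.

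Under Ang II the mitosis genes stood lower in miR-214-/- than in WT, with a median log2 difference of -0.80 and a range from -1.13 (Cit) to -0.01 (Cdc25b). edgeR called 0 of 55, where 0.0% of 16215 genes were called. An unadjusted p under 0.05 was reached by 35 genes, beside 8.56% of all genes, and for 21 genes every miR-214-/- library lay below every WT library, beside 5.95%. This difference depended on single libraries. With miR-214-/- Ang II replicate 1 left out, the median was -1.24 and 52 genes reached an unadjusted p under 0.05, beside 20.3% of all genes, with 0 called and a smallest adjusted p of 0.0546. The count was 11 and 9 without WT Ang II replicates 2 and 3, beside 5.85% and 3.53% of all genes. It was 8 and 7 without miR-214-/- Ang II replicates 2 and 3, beside 5.07% and 4.4%.

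Whether the response to Ang II differed between the genotypes was tested by the interaction of Ang II and genotype over all 12 libraries. In edgeR 0 of the 55 genes were called, where 0.00596% of 16770 genes were called, and the smallest adjusted p was 0.213. The median interaction was -1.56 on the log2 scale, so that the fitted response was smaller in miR-214-/-, and 50 genes had an unadjusted p under 0.05, beside 14.8% of all genes. Cdc25c had the largest value, at -2.49. DESeq2 called 44 of the 55 genes for the interaction, beside 1.47% of all genes, Cenpe among them (-1.51, adjusted p = 0.000157). edgeR called 51 genes without miR-214-/- Ang II replicate 1, beside 5.35% of all genes, with a median of -2.0. The call for the set thus turned on the tool and on that library. These comparisons share their libraries, so their values are not independent of each other.

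Markers of some other cells rose with the mitosis genes in WT, where 7.01% of all genes tested were called higher. The markers of B cells and NK cells did not rise, with median log2 fold changes of -0.31 and -0.59 and 0 called. Of the markers listed, 0 were at 0 in all 12 libraries, and defining markers of T cells such as Lck, the kinase of the T cell receptor, were abundant in every group, at 855 ± 82.5 CPM in WT sham (SD, n = 3). Markers of red-cell precursors summed to 297, 261 and 358 CPM in WT sham and 3507, 2680 and 1677 CPM in WT Ang II, with 12 of 15 called higher. In miR-214-/- they summed to 200, 694 and 594 CPM in sham and 1074, 2588 and 403 CPM in Ang II. Within miR-214-/- Ang II, this sum was highest in replicate 2, and that of the mitosis genes in replicate 1. Hba-a1 had the highest mean CPM of these markers in that group and spread widely, at 525 ± 699 CPM (SD, n = 3). Hbb-bt, at 178 ± 231 CPM, and Alas2, at 89.9 ± 117 CPM, also spread widely there. Hba-a1, Hbb-bt and Alas2 were not called in WT. They weigh on the sum, so its order across the replicates need not hold for the red-cell markers that were called.

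Markers of neutrophils and their precursors summed to 237, 271 and 211 CPM in WT sham and 3494, 1189 and 1704 CPM in WT Ang II. Of these markers 11 of 11 were called higher, beside 7.01% of all genes. In miR-214-/- sham they summed to 686, 257 and 1034 CPM, with a median log2 difference of 1.47 from WT sham and 0 of 11 called, beside 0.73 for the mitosis genes. In miR-214-/- Ang II they summed to 1287, 3162 and 657 CPM, again highest in replicate 2. The genes of this list did not spread alike in that group. S100a9 was at 367 ± 421 CPM (SD, n = 3) and Ngp at 284 ± 326 CPM. Mpo was at 287 ± 170 CPM and Prtn3 at 63.4 ± 17.6 CPM, so the order of the sums need not hold for each marker. Markers of early progenitors summed to 49.0, 69.0 and 35.9 CPM in WT sham and 148, 144 and 146 CPM in WT Ang II, with 4 of 5 called higher, and to 128, 52.9 and 73.7 CPM in miR-214-/- Ang II. Markers of plasma cells summed to 281, 771 and 142 CPM in WT sham and 522, 1497 and 1845 CPM in WT Ang II, with 0 of 6 called, and to 1191, 332 and 205 CPM in miR-214-/- Ang II. Markers of basophils and mast cells summed to 45.9, 82.9 and 44.8 CPM in WT sham and 427, 260.0 and 194 CPM in WT Ang II, with 6 of 6 called higher, and to 262, 138 and 184 CPM in miR-214-/- Ang II. The last 3 lists were highest in replicate 1 of miR-214-/- Ang II, as the mitosis genes were. In miR-214-/- sham, early progenitor markers summed to 68.5, 60.7 and 86.1 CPM and plasma cell markers to 194, 922 and 941 CPM. Markers of basophils and mast cells summed there to 185, 77.2 and 189 CPM. Of these lists, only that of plasma cells was lowest in sham replicate 1, as the mitosis genes were.

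Markers of T cells stood lower in WT Ang II, where the mitosis genes stood higher. They summed to between 5094 and 6135 CPM in WT sham and between 3477 and 4248 CPM in WT Ang II. All 12 were lower after Ang II, by log2 fold changes from -0.62 to -0.42, and 9 had an adjusted p under 0.05 in edgeR. Of all 16012 genes tested, 1131 were lower at that adjusted p. Of the 12 markers 0 were called, since none passed the limit on the fold. In miR-214-/- they summed to 5520, 4771 and 4681 CPM in sham and 3945, 5488 and 5223 CPM in Ang II. Replicate 1 was the highest of the sham group and the lowest of the Ang II group, where the mitosis genes were lowest and highest. The part of these cells in the results on mitosis genes was not tested.

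**Figure D5:**
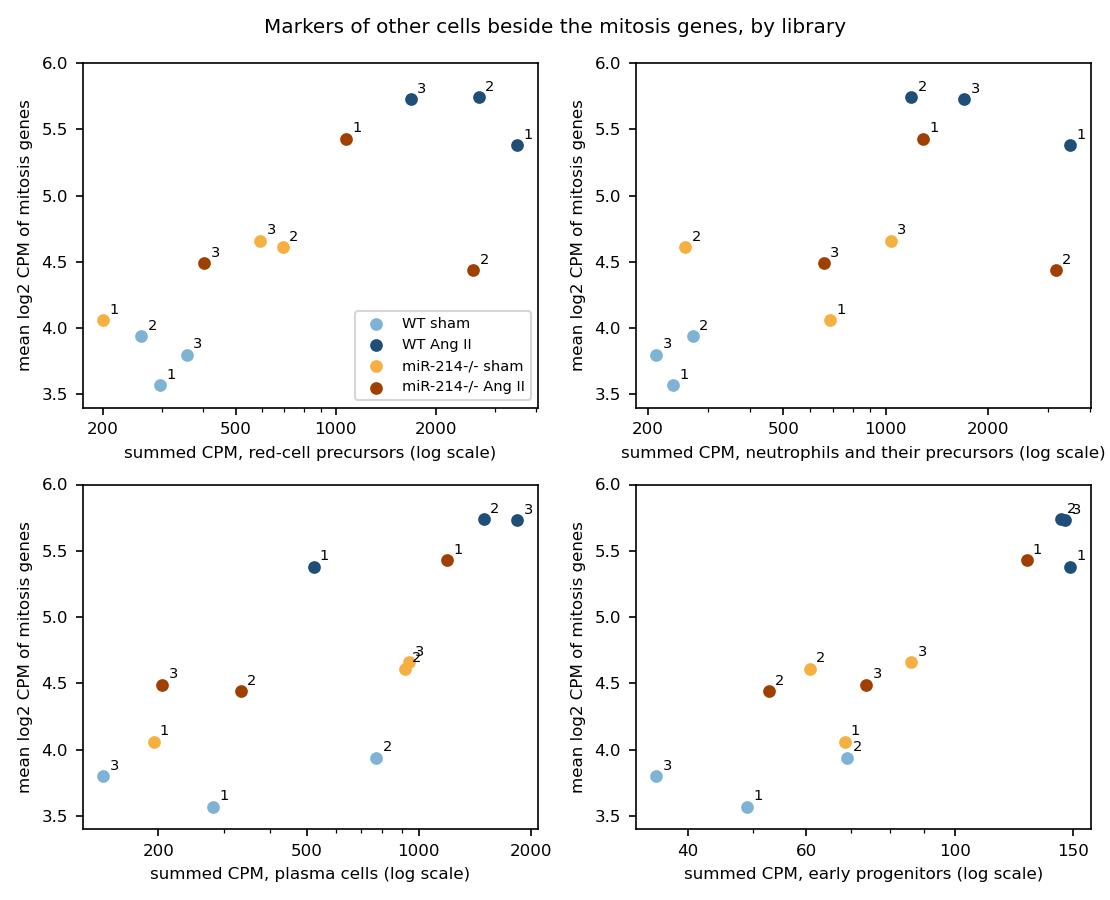
Each point is a library, numbered by replicate, with the summed CPM of a marker list on a log axis and the mean log2 CPM of the 55 mitosis genes on the other axis. The WT Ang II libraries lie high on the vertical axis in each panel. In miR-214-/- Ang II, replicate 2 is high in the sums of red-cell and neutrophil markers and low in mitosis genes. These sums need not hold for each marker.

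The mature miR-214-3p, which the miR-214-/- mice lack, is shown with its seed (bases 2 to 8) in capitals, since a gene can be repressed directly where its 3′ UTR holds the complement of the seed.
mmu-miR-214-3p (RefSeq, GRCm38.p6, chr1:162223438-162223459, plus strand): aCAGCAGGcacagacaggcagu
The complement CCTGCTG was found in the longest annotated 3′ UTR of 12 of the 55 genes (21.8%), beside 23.2% of 12799 tested genes with a 3′ UTR. The 8-base form CCTGCTGA was found in 3 genes (5.45%), beside 5.69%. The 3 sites are shown from the transcripts of the GRCm38 annotation with the 7 pairing bases in capitals.
Cdk1, from base 1968 of its 3′ UTR: gcacaggaaggCCTGCTGaagagttggcg
Mad2l1, from base 5774: gctggattgggCCTGCTGaagcatccatc
Cit, from base 1347: ccttccagttcCCTGCTGacttcaaggac
The share of mitosis genes with a site was close to that of all genes. Their 3′ UTRs were shorter, with a median of 603 bases beside 1145. In sham the 3 genes stood higher in miR-214-/- by 0.96 (Cdk1), 0.44 (Mad2l1) and 0.88 (Cit) on the log2 scale, where the median of all 55 was 0.73, and none of the 3 was called by edgeR.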

How the data were processed

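T cells from 12 mice were profiled by RNASeq with poly(A) stranded libraries. The authors mapped reads to GRCm38 and counted exonic reads per gene with featureCounts (Subread 1.5.2 in the submitters' processing notes), and the deposited values are raw counts without normalization. The strand setting of the counting and the annotation release are not given in the sources used here. Reads of the 14 mitosis genes whose exons lie opposite a gene on the other strand (Ccna2, Cdc20, Ube2c and Prc1 among them), and of the 3 that share exons with one on the same strand, are therefore less certain. Of the 49315 genes, 49056 were matched to GENCODE M21 (GRCm38), and the 259 unmatched ones held 0.0245% of the counts.

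Counts were tested with edgeR 4.0.16 in R 4.3.3 (filterByExpr, TMM, quasi-likelihood test, Benjamini-Hochberg over all genes tested), each pair of groups in its own fit and the interaction over all libraries. Calls needed an adjusted p below 0.05 together with a log2 fold change beyond 1 in either direction, and for the interaction the adjusted p alone. Mean log2 CPM used a prior count of 2, and RPKM the union of exons. With 3 mice against 3 an exact permutation test cannot go below p = 0.1. The study names DESeq2, which was run (1.42.0) as an alternative. On simulated counts for the WT comparison with 200 changed genes, edgeR recovered 178 with 9 false calls and DESeq2 174 with 13, among 14606 and 14618 genes. For the interaction, edgeR recovered 149 with 15 false calls and DESeq2 156 with 30, each among 14618 genes. The simulated counts took the mean and spread of each gene from the WT sham libraries. They held no library that stood apart as miR-214-/- Ang II replicate 1 did, so they do not show how either tool treats one.

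Alternatives were DESeq2, RLE and library total scaling, no filter, at least 10 counts in every library, the replicate block, the adjusted-deviance fit, 1 fit over 4 groups, the adjusted p alone and leaving out each library. The genes named were, per group of role, the 2 most abundant and those with the largest and smallest WT change, each gene not called in WT, and the extremes of the other comparisons. Other genes were named after their values were seen. The members and all lists (other mitosis genes, markers of early progenitors, T cells, plasma cells, red-cell precursors, neutrophils, B cells, germinal centre B cells, NK cells, macrophages, megakaryocytes, basophils, and T cell activation) were chosen with earlier results of these data known. Not every megakaryocyte marker is reported here. Sequence windows and the miR came from RefSeq, and motifs were matched letter by letter on both strands. Of the library pairs within a group, 0 held identical counts.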

Additional observations from a re-analysis of the deposited data

How the results depend on the processing

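In WT the count of called mitosis genes was between 48 and 50 and their median log2 fold change between 2.03 and 2.22 under all alternatives. In miR-214-/- the count was 0 throughout, and the median was between 0.03 and 0.68. DESeq2 called 2 genes between the sham groups and 44 for the interaction, where edgeR called 0. Leaving out each library in turn gave 0 to 2 between the sham groups (median 0.62 to 0.91), 0 between the Ang II groups (median -1.24 to -0.59) and 0 to 51 for the interaction (median -2.0 to -1.38), the 51 without miR-214-/- Ang II replicate 1. The share of promoters with the CHR letters was 69.6% in the shorter window, and that of 3′ UTRs with a miR-214-3p site 5.45% for the 8-base form. The cause of these changes was not tested.

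Same-numbered libraries did not deviate together in every pair (r from -0.559 to 0.202), so the numbers were not taken as pairing the mice. With the replicate block the counts were 49 in WT and 0 in the other comparisons, and the medians were 2.09 (WT), 0.37 (miR-214-/-), 0.73 (genotypes in sham), -0.88 (genotypes in Ang II) and -1.59 (interaction).

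Changes of sign concerned genes that were not called. For Ang II against sham in miR-214-/-, 22 of the 55 genes changed sign under at least 1 alternative, 20 of them without Ang II replicate 1. Of the genes named by rule, leaving out single libraries gave -0.23 to 0.77 for Cdc25c, -0.19 to 0.64 for Cdc20, -0.07 to 0.70 for Birc5, -0.00 to 0.68 for Cdca8, -0.65 to 0.68 for Cenph, -0.06 to 0.57 for Prc1, -0.21 to 0.72 for Cit, -0.10 to 0.49 for Foxm1 and -0.31 to 0.74 for Mybl2, the lowest of each without Ang II replicate 1, and -0.11 to 0.07 for Kif20b. Racgap1 was at -0.00 with library total scaling, at least 10 counts in every library or 1 fit over 4 groups, and from -0.10 to 0.10 without single libraries. Between the genotypes in sham, Cdc25b was between -0.04 and 0.11 and Bub3 between -0.08 and 0.06 without single libraries. In Ang II, Cdc25b was at 0.00 with the replicate block and between -0.16 and 0.10 without single libraries, and Smc4 between -0.09 and 0.01. For the interaction, Cdc25b was between -0.19 and 0.10. Depth limits the precision of the genes with the fewest counts, such as Cdc25c and Cenpk.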

Other observations

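Other lists of markers were measured beside the mitosis genes. Germinal centre B cells had 1 of 3 tested markers called higher in WT (Gcsam), beside 7.01% of all genes. Of genes of megakaryocytes and platelets, Gp9 rose by 1.32 ± 0.33 in WT (adjusted p = 0.0356 in edgeR), and Itga2b (0.99 ± 0.22), Ppbp (1.21 ± 0.35) and Pf4 (1.30 ± 0.44) were not called. B cells had 0 of 8 called, macrophages and monocytes 0 of 9, and NK cells 0 of 4 tested. Of the B cell list, the libraries ranged from 54.7 CPM in miR-214-/- sham to 459 CPM in miR-214-/- Ang II replicate 2. Genes of T cell activation had 0 of 12 called in WT, with a median log2 fold change of 0.10 beside 2.09 for the mitosis genes. Of these, Cd44, the hyaluronan receptor of memory cells, changed by 0.71 (adjusted p = 0.00763 in edgeR), and Cd69 and Icos changed by -0.11 and -0.16 without passing the test.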
